A study of Mus musculus with 8 samples.

Results

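The genes that carry iron through the intestinal epithelium were compared between crypts of the small intestine (SI) and the colon (COL). The set holds 10 mouse genes for the uptake, storage and export of iron, chosen by symbol and matched through their Ensembl identifiers to both count tables, of 45706 genes in the tables. All 10 were found, and 9 of them passed the filter on low counts, as did 14491 genes in all. RNA-Seq had been performed on crypts freshly isolated from 4 wild-type C57BL/6N mice on a standard diet, with no treatment named. Each animal contributed a library of either tissue, which made 4 libraries per tissue. The labels number the donors 1, 2, 3 and 5, mice 1 and 5 being female and mice 2 and 3 male. An age is not given in the sources used here.

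Iron from food crosses the enterocyte in steps. On the luminal side ferric iron is reduced and the ferrous ion is taken up together with protons, and heme is taken up by a separate route. Inside the cell iron is stored in ferritin or leaves at the basolateral side through ferroportin, coupled to its oxidation by hephaestin. Dividing crypt cells take up iron from transferrin in the blood. Iron regulatory proteins bind hairpins in several of these mRNAs, called iron-responsive elements, when iron is scarce. An element in the 5′ untranslated region (UTR) then blocks translation, while elements in the 3′ UTR protect the mRNA from decay.

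These hairpins are shown because they set part of the list apart: a difference in RNA level can be read against them, while the block of translation at a 5′ element is not seen in RNA counts. A hairpin with the iron-responsive shape was searched on the sense strand of every protein-coding transcript of GENCODE M21 (build GRCm38, that of mm10). The motif was a C, 5 further bases and the loop CAGTGN, with 5 base pairs above the C, G to U pairs allowed. It was counted as strict when it had no further bulge and as relaxed when 1 base of the 3′ arm was left unpaired. Such a site was found in 6 of the 10 genes, against 881 of 21877 protein-coding genes (4.03%), and 9 sites were found in the 6 genes. The strict form was found in 294 genes (1.34%). The matches say only that these letters are present. As several of these mRNAs are known to carry such hairpins, the share among the 10 genes is not an independent finding. The search covered whole transcripts, coding sequence included, while the sites in the 6 genes all lie in a UTR. In the lines below, written 5′ to 3′ on the gene's own strand, the capitals mark the bulged C and the 6 bases of the loop.
Fth1, 5′ UTR, strict: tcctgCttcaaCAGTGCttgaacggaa
Ftl1, 5′ UTR, strict: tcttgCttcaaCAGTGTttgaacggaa
Slc40a1, 5′ UTR, strict: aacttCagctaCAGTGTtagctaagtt
Epas1, 5′ UTR, relaxed: acaatCctcggCAGTGTcctgagactgt
Slc11a2, 3′ UTR, relaxed: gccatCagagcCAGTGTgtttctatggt
Tfrc, 3′ UTR, strict: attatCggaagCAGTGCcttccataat
Tfrc, 3′ UTR, strict: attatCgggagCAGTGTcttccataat
Tfrc, 3′ UTR, strict: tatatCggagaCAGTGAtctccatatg
Tfrc, 3′ UTR, strict: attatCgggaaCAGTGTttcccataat

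The 5′ sites lie at chr19:9982733-9982759 on the plus strand (Fth1), chr7:45459780-45459806 on the minus strand (Ftl1), chr1:45925466-45925492 on the minus strand (Slc40a1) and chr17:86753769-86753796 on the plus strand (Epas1). The site of Slc11a2, at chr15:100395153-100395180 on the minus strand, is in 1 annotated transcript of the gene. Slc11a2 is known to be made with and without this 3′ end, and counts per gene do not separate these forms. The 4 sites of Tfrc lie on the plus strand at chr16:32631220-32631246, chr16:32631599-32631625, chr16:32631664-32631690 and chr16:32631711-32631737. The ferritin chains carry nearly the same hairpin, and the 4 hairpins of Tfrc follow each other within a short stretch of its 3′ UTR. No such match was found in Cybrd1, Slc46a1, Heph or Hmox1.

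Some facts of the libraries touch every result. Total counts ranged from 15969428 to 32908060. Mitochondrially encoded genes took 4.83% to 7.35% of the counts in the SI libraries of mice 1 and 5 and the COL libraries of mice 3 and 5, and 22.7% to 50.8% in the other 4. The summed level of 10 mature enterocyte markers was 69683 to 150811 CPM in SI and 574 to 1575 CPM in COL, and all 10 were higher in SI. The list names no marker particular to absorptive cells of the colon, so its sum does not give their share in COL. The summed level of 7 crypt stem and cycling markers was 396 to 604 CPM in SI of mice 2, 3 and 5, 76.6 CPM in SI of mouse 1 and 245 to 496 CPM in COL, so that the SI library of mouse 1 stood apart. For Gata4, a transcription factor of the proximal small intestine, SI averaged 50.4 ± 2.02 CPM and COL 0.101 ± 0.1005 CPM (SD, n = 4 each). Onecut2, of the same marker list, was at 58.8, 127, 119 and 39.7 CPM in SI of mice 1, 2, 3 and 5 and at most 1.12 CPM in COL. Pdx1, also of this list, was at 0.226, 4.53, 6.39 and 0.0916 CPM in these SI libraries and was under the filter. Of the 3 markers of the distal small intestine, Fabp6 and Slc10a2 averaged 0.175 and 1.05 CPM in SI while Osr2 averaged 76.4 CPM there and 67.9 CPM in COL, and the labels name no segment. CPM here is a count scaled to a common library total over the genes kept, after TMM scaling, and a log2 fold change above 0 means a higher level in SI.

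Of the 9 iron genes tested, 4 differed between the tissues by edgeR's quasi-likelihood test at an adjusted p under 0.05, against 28.4% of all genes tested (4116 of 14491). Slc46a1, Heph and Slc11a2 were higher in SI, where 15.5% of all genes were, and Hmox1 was higher in COL, where 12.9% were. In CPM, 4 of the 9 had no overlap between the tissues, against 33.5% of all genes tested, and they were these same 4. The median log2 fold change was -0.11 over the 9 genes and -0.09 over all genes tested. Scaling by library size alone moved the median of all genes to -0.82 and upper-quartile scaling moved it to -0.42, and the genes called higher in SI and higher in COL, 2253 and 1863 with TMM, became 1115 and 4788 or 1712 and 2781. The directions of the 9 genes were the same under these scalings. Relative to the median gene, Slc11a2 stood at 1.78 with TMM, at 1.74 with library size and at 1.80 with the upper quartile.

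**Figure D1:**
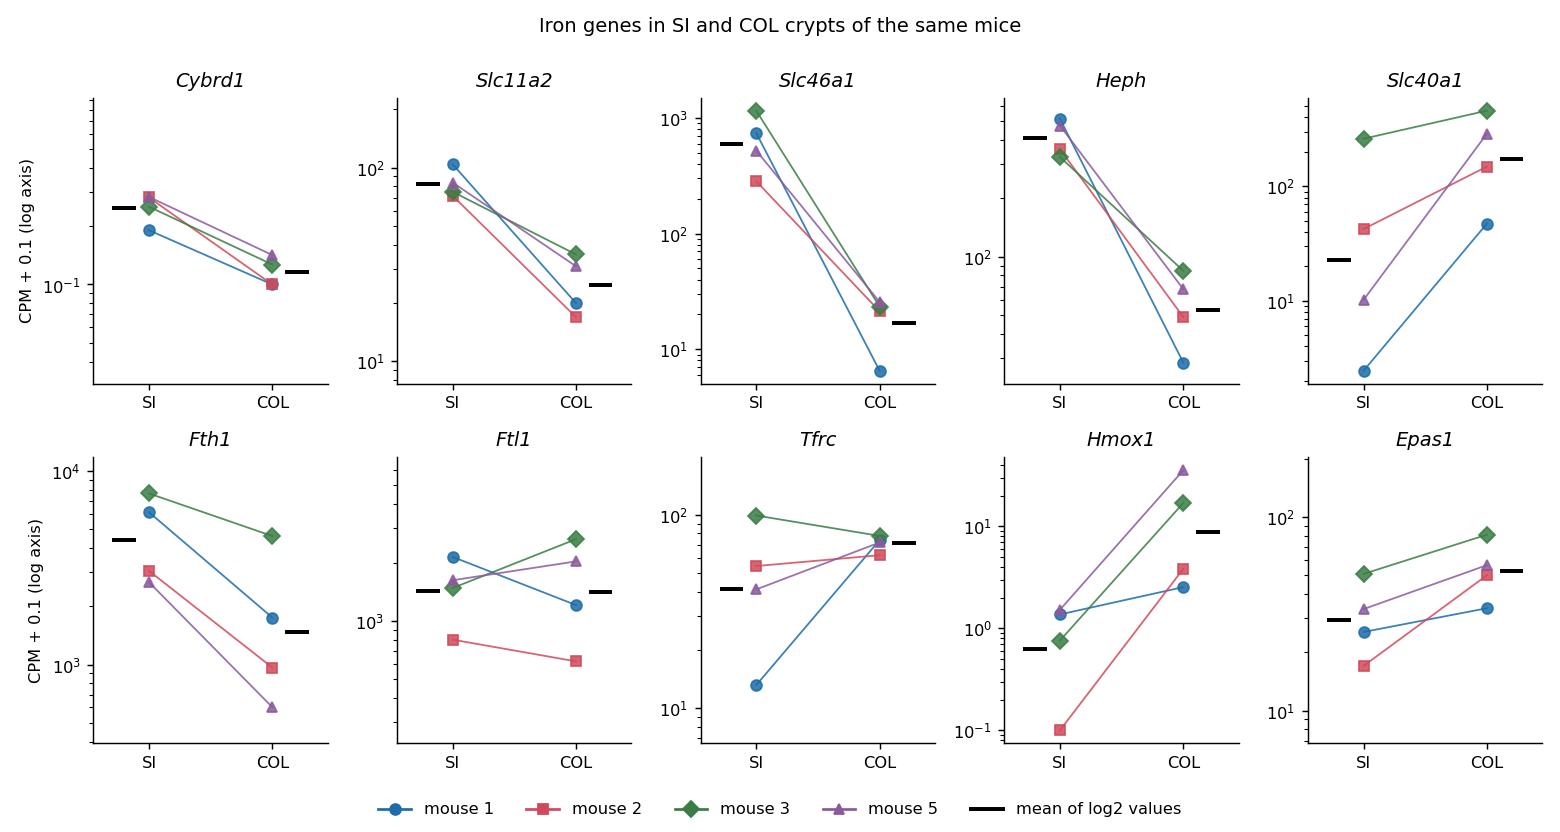
CPM of the 10 iron genes (plus 0.1, log axes) in SI and COL, each line joining the libraries of 1 mouse and each bar the mean of the log2 values of 4 libraries. For Slc11a2, Slc46a1 and Heph all SI values lie above all COL values, for Hmox1 all lie below, and Slc40a1 is lower in SI within each of the 4 mice although the tissues overlap.

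On the luminal side, the transporter of ferrous iron was present in both tissues and its reductase was at the limit of detection in both. Cybrd1 (ENSMUSG00000027015, chr2:71117923-71142926) encodes the ferrireductase DCYTB of the duodenal brush border. It received 2, 3, 3 and 4 counts in SI of mice 1, 2, 3 and 5 and 0, 0, 1 and 2 counts in COL. The gene was therefore not tested, and no fold is given. A level of 3 counts corresponded to 0.0628 to 0.186 CPM in these libraries, and this limit covers counting error only. Cybrd1 was thus near the floor in SI libraries in which Gata4 and the enterocyte markers were plainly present.

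Slc11a2 (ENSMUSG00000023030, chr15:100387898-100425072) encodes DMT1, which carries ferrous iron across the apical membrane and out of endosomes. It was at 104, 71.5, 74.9 and 83.6 CPM in SI of mice 1, 2, 3 and 5 and at 19.9, 16.8, 35.5 and 30.8 CPM in COL. The lowest SI value was above the highest COL value, and SI was higher in each of the 4 mice. The means were 83.5 ± 14.6 CPM and 25.7 ± 8.87 CPM (SD, n = 4 each), and by edgeR the log2 fold change was 1.70 ± 0.30 (SE, adjusted p = 0.00146). On the opposite strand the unnamed gene model Gm5475 shares 402 exon bases with Slc11a2, and it received at most 8 counts in a library. The use of strand in counting is not given in the sources used here.

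Slc46a1 (ENSMUSG00000020829, chr11:78465697-78472059) had the largest difference of the 9. It encodes a proton-coupled carrier of folate that also takes up heme at low affinity. It was at 738, 283, 1153 and 521 CPM in SI of mice 1, 2, 3 and 5 and at 6.42, 21.2, 23.3 and 25.5 CPM in COL. Every SI value exceeded every COL value. By edgeR the log2 fold change was 5.14 ± 0.61 (SE, adjusted p = 0.000103), a 35.2-fold difference. Its size differed between mice, from a log2 difference of 6.82 in mouse 1 to 3.73 in mouse 2.

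At the basolateral side, the ferroxidase was far higher in SI while the exporter was not. Heph (ENSMUSG00000031209, chrX:96455359-96574485) encodes hephaestin, the copper-dependent oxidase that works with ferroportin. It was at 515, 359, 327 and 476 CPM in SI of mice 1, 2, 3 and 5 and at 28.3, 48.7, 84.6 and 68.0 CPM in COL. The tissues did not overlap. By edgeR the log2 fold change was 2.87 ± 0.40 (SE, adjusted p = 0.000295), a 7.30-fold difference. Slc11a2, Slc46a1 and Heph shared the direction of the enterocyte marker list, of which 10 of 10 were higher in SI. Within SI, the enterocyte sum ran from high to low over mice 1, 5, 3 and 2. Slc11a2 had this same order, and Heph had the order 1, 5, 2 and 3. Slc46a1 was highest in mouse 3, whose enterocyte sum was 71843 CPM against 150811 CPM in mouse 1. In COL the sum, Slc11a2, Slc46a1 and Heph were each higher in mice 3 and 5 than in mice 1 and 2. The part of that list in the result was not tested. In bulk libraries, fewer cells of a type and less RNA per cell cannot be told apart.

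Slc40a1 (ENSMUSG00000025993, chr1:45908068-45926523) encodes ferroportin, the only known exporter of cellular iron in mammals. It was at 2.36, 42.4, 261 and 10.1 CPM in SI of mice 1, 2, 3 and 5 and at 47.3, 149, 458 and 289 CPM in COL. The SI values spread over a 111-fold range and overlapped the COL values, while within each of the 4 mice the SI library was the lower. The standard deviation of its log2 CPM in SI was 2.88, above that of 99.9% of the genes tested. The log2 fold change was -1.58 ± 1.12 without a term for the mouse (SE, edgeR, adjusted p = 0.324). A block for the donor gave -2.94 ± 0.73 (SE, edgeR, adjusted p = 0.0164). With this block 5 of the 9 iron genes were called, against 28.1% of all genes tested. The log2 difference was -4.27 in mouse 1, -1.81 in mouse 2, -0.81 in mouse 3 and -4.82 in mouse 5. Leaving out any 1 library without a block gave -1.03 (without COL of mouse 3, edgeR, adjusted p = 0.556) to -3.68 (without SI of mouse 3, edgeR, adjusted p = 0.0269), and the latter was the 1 call among these 8 fits.

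The spread of Slc40a1 in SI went along with that of other measures. Its 2 low SI libraries, of mice 1 and 5, were those of low mitochondrial share and of the higher enterocyte sums, 150811 and 121169 CPM. The SI libraries of mice 2 and 3 had a high mitochondrial share and enterocyte sums of 69683 and 71843 CPM. They were also higher in Onecut2 and Pdx1, markers of the proximal small intestine, than the SI libraries of mice 1 and 5. In COL the relation was the reverse. There mice 3 and 5, of low share and enterocyte sums of 1575 and 1282 CPM, had 458 and 289 CPM of Slc40a1. COL of mice 1 and 2, of high share and sums of 574 and 708 CPM, had 47.3 and 149 CPM. Among the 4 libraries of high mitochondrial share the mean log2 difference between SI and COL was 0.32, and among the 4 of low share it was -6.18. These classes hold SI and COL libraries of different mice, with 2 libraries per tissue in each. The part of the marker levels and of the mitochondrial share in the result was not tested.

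**Figure D2:**
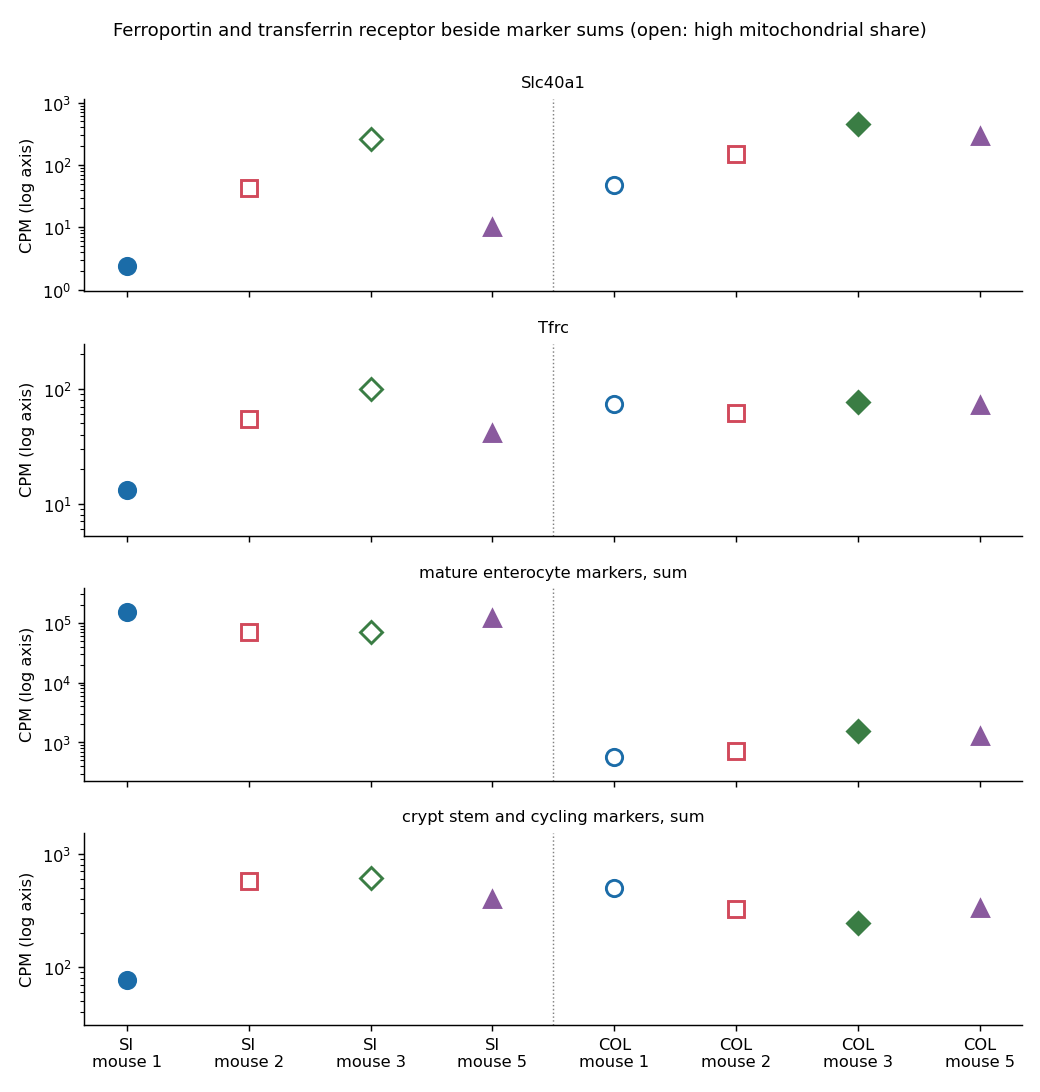
CPM of Slc40a1 and Tfrc and the summed CPM of the mature enterocyte and the crypt stem and cycling markers in each library (log axes), with open symbols for the 4 libraries of high mitochondrial share. In SI, mouse 1 was lowest in Slc40a1, Tfrc and the crypt markers and highest in the enterocyte markers.

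Iron from transferrin enters through the receptor encoded by Tfrc (ENSMUSG00000022797, chr16:32608920-32632794), the mRNA with 4 iron-responsive elements shown above. Tfrc was at 13.1, 54.2, 98.9 and 41.0 CPM in SI of mice 1, 2, 3 and 5 and at 73.8, 61.7, 77.6 and 71.7 CPM in COL. The COL values lay within a 1.26-fold range and the SI values within a 7.56-fold range. The log2 fold change was -0.46 ± 0.47 (SE, edgeR, adjusted p = 0.5002), and SI was higher in 1 of the 4 mice. Leaving out any 1 library gave -0.12 (without SI of mouse 1) to -0.96 (without SI of mouse 3). The mean log2 difference was 0.12 among the libraries with a high share of mitochondrial counts and -1.68 among those with a low share, and the part of this share was not tested. In COL the spread of Tfrc was below that of all but 3.03% of the genes tested. In SI its order over the mice, 3, 2, 5 and 1 from high to low, was also that of Slc40a1.

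Storage was described by the 2 chains of ferritin, which assemble into the shell that holds iron. Fth1 (ENSMUSG00000024661, chr19:9980598-9985098) encodes the heavy chain, the one with ferroxidase activity. It was at 6117, 3046, 7646 and 2662 CPM in SI of mice 1, 2, 3 and 5 and at 1748, 965, 4607 and 602 CPM in COL. SI was higher in each of the 4 mice, and the mice had the same order in both tissues, but the value of mouse 3 in COL overlapped the SI values. The log2 fold change was 1.30 ± 0.70 (SE, edgeR, adjusted p = 0.193), and 1.59 ± 0.61 with the mouse as a block (SE, edgeR, adjusted p = 0.0837). Leaving out any 1 library gave 0.999 (without COL of mouse 5, edgeR, adjusted p = 0.355) to 2.15 (without COL of mouse 3, edgeR, adjusted p = 0.0365), and the latter was the 1 call among these 8 fits. With library size alone it was 0.54 (edgeR, adjusted p = 0.553).

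Ftl1 (ENSMUSG00000050708, chr7:45457944-45459884), the light chain, was at 2140, 800, 1477 and 1620 CPM in SI of mice 1, 2, 3 and 5. In COL it was at 1207, 618, 2641 and 2028 CPM. It was higher in SI in mice 1 and 2 and lower in mice 3 and 5, with a log2 fold change of -0.11 ± 0.52 (SE, edgeR, adjusted p = 0.901). Its count is uncertain, because 90.6% of the 50-base stretches of its longest transcript also occur in transcripts of 17 other genes, among them the ferritin pseudogene Ftl1-ps1. The handling of reads that fit several places is not given in the sources used here. The pseudogene Ftl2-ps received 2.23% to 4.37% of the count of Ftl1 and Ftl1-ps1 received 0.748% to 0.996%. For Fth1, 4.01% of the stretches were shared, and for Slc11a2, Slc46a1, Slc40a1, Heph, Tfrc, Hmox1 and Epas1 none were.

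Breakdown of heme gave the 1 call in the other direction. Hmox1 (ENSMUSG00000005413, chr8:75093621-75100589) encodes heme oxygenase, which opens the heme ring and frees its iron. It was at 1.27, 0, 0.659 and 1.42 CPM in SI of mice 1, 2, 3 and 5 and at 2.43, 3.73, 16.8 and 35.4 CPM in COL. The tissues did not overlap, and the COL values spread over a 14.5-fold range. By edgeR the log2 fold change was -4.10 ± 1.01 (SE, adjusted p = 0.0105). With limma-voom it was -4.34 (adjusted p = 0.0592), which ended the call, and without the COL library of mouse 5 it was -3.17 (edgeR, adjusted p = 0.0369). At 0 to 31 counts in SI, counting error adds to the spread between mice.

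Cells other than epithelium are known to make Hmox1. The summed level of the 10 macrophage markers was 13.5 to 19.1 CPM in SI and 34.4 to 84.5 CPM in COL, of which Cd14 alone made up 32.3 to 75.7 CPM in COL. Without Cd14 the other 9 summed to 4.11 to 9.85 CPM in SI and 2.14 to 8.75 CPM in COL, ranges that overlap. Of the 6 tested, whose median log2 fold change was 0.59, 1 (Cd14) was higher in COL and none was higher in SI. The defining markers Adgre1 and Csf1r were not tested for want of counts and reached 1.33 and 1.54 CPM at most. The summed level of 6 erythroid markers was 0.0458 to 0.967 CPM in SI and 3.88 to 38.7 CPM in COL, with all 3 tested higher in COL and Slc4a1 at 0 in every library. The part of these lists in the result was not tested.

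Epas1 (ENSMUSG00000024140, chr17:86753700-86833410) encodes HIF2A, the oxygen-regulated factor known to raise transcription of Slc11a2, Cybrd1 and Slc40a1 in the duodenum. It was at 25.4, 16.9, 50.7 and 33.3 CPM in SI of mice 1, 2, 3 and 5 and at 33.7, 49.9, 80.9 and 56.3 CPM in COL. SI was lower in each of the 4 mice, and the tissues overlapped. The log2 fold change was -0.81 ± 0.37 (SE, edgeR, adjusted p = 0.129), and with library size alone it was -1.54 (edgeR, adjusted p = 0.0108). Epas1 is also expressed in endothelium. The 8 endothelial markers summed to 1.33 to 7.19 CPM in SI and 3.96 to 12.1 CPM in COL, 1 of 4 tested (Pecam1) was higher in COL, and Cdh5 reached 0.363 CPM at most. The part of endothelium in the values was not tested.

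**Figure D3:**
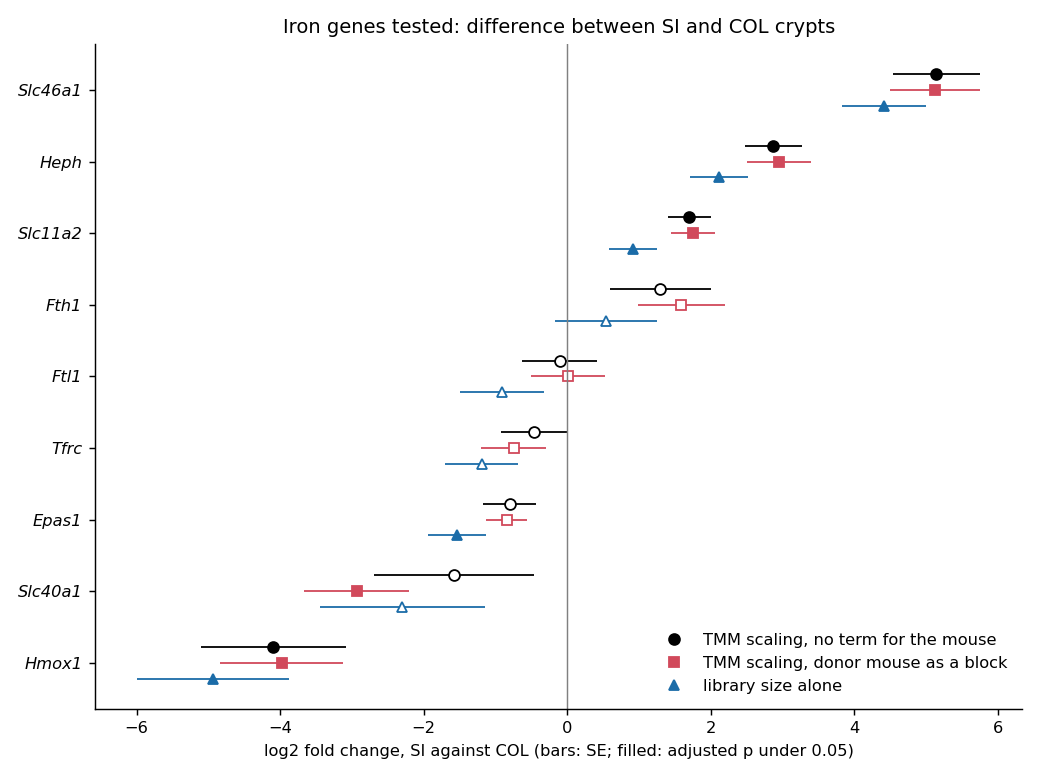
Log2 fold change of SI against COL with its SE for the 9 iron genes tested, with TMM scaling, with the donor mouse as a block and with library size alone, filled where the adjusted p was under 0.05. Slc46a1, Heph, Slc11a2 and Hmox1 are filled under all 3, Slc40a1 with the block and Epas1 with library size.

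Levels of different genes were set side by side as CPM per kilobase of merged exons. Merged exons can be much longer than the longest protein-coding transcript. They held 9000 against 3370 bases for Slc40a1, 3469 against 1494 for Fth1 and 6354 against 4415 for Slc11a2. The order of near neighbours therefore depends in part on the length used. In SI the order of the means was Fth1 at 1403 ± 696, Ftl1 at 1126 ± 412, Slc46a1 at 219 ± 120, Heph at 54.7 ± 11.8, Slc11a2 at 13.1 ± 2.29, Slc40a1 at 8.77 ± 13.6, Tfrc at 8.38 ± 5.78, Epas1 at 5.65 ± 2.58, Hmox1 at 0.478 ± 0.370 and Cybrd1 at 0.0284 ± 0.00809 CPM per kb (SD, n = 4). The 2 ferritin chains overlapped each other, as did each neighbouring pair from Slc11a2 to Epas1. In COL the order was Ftl1 at 1211 ± 665, Fth1 at 571 ± 523, Slc40a1 at 26.2 ± 19.8, Tfrc at 11.5 ± 1.10, Epas1 at 9.87 ± 3.504, Hmox1 at 8.33 ± 8.74, Heph at 7.49 ± 3.17, Slc46a1 at 6.20 ± 2.81, Slc11a2 at 4.05 ± 1.40 and Cybrd1 at 0.00321 ± 0.00389 CPM per kb (SD, n = 4). Every neighbouring pair from Slc40a1 to Slc11a2 overlapped in COL. Ferritin was thus the most abundant mRNA of the set per length in either tissue, Slc46a1 and Heph came next in SI, and Slc40a1 had the next highest mean in COL.

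Ratios within a library do not depend on the scaling between libraries. On the log2 scale of CPM + 0.1, Fth1 over Ftl1 was 1.52, 1.93, 2.37 and 0.72 in SI of mice 1, 2, 3 and 5 and 0.53, 0.64, 0.80 and -1.75 in COL. The ratio was higher in SI in each of the 4 mice, by 1.58 on average, although the tissues overlapped. Without COL of mouse 5 the difference was 0.97. The uncertainty of the Ftl1 count, given above, applies to this ratio as well. The 2-sided exact permutation test gave p = 0.0571 (adjusted over the 4 ratios p = 0.0762). Slc11a2 over Slc40a1, mRNA of the importer against that of the exporter, was 5.40, 0.75, -1.80 and 3.03 in SI and -1.25, -3.14, -3.69 and -3.22 in COL. It was higher in SI in each of the 4 mice and 4.67 higher on average (exact permutation p = 0.0571, adjusted p = 0.0762). The ratio was negative in SI of mouse 3 alone, and in COL it was negative in each of the 4 mice. It is not corrected for length, and neither import nor export of iron was measured.

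Slc40a1 over Tfrc was lower in SI in each of the 4 mice, with means of -0.85 ± 1.74 and 1.30 ± 1.40 (SD, n = 4, exact permutation p = 0.143, adjusted p = 0.143). For Cybrd1 over Heph the SI mean was -10.7 ± 0.505 and the COL mean -8.84 ± 0.511 (SD, n = 4, exact permutation p = 0.0286, adjusted p = 0.0762). As Cybrd1 was near the floor throughout, the size of this difference depends on the offset, and with 1 CPM in place of 0.1 it was -2.75 in place of -1.85. The direction of this difference was largely that of Heph, in which the tissues did not overlap. The p-value therefore says nothing of Cybrd1, which had 2 to 4 counts in SI and 0 to 2 counts in COL. The value 0.0286 is the smallest that 4 against 4 libraries can give. None of the 4 ratios passed the threshold after adjustment.

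**Figure D4:**
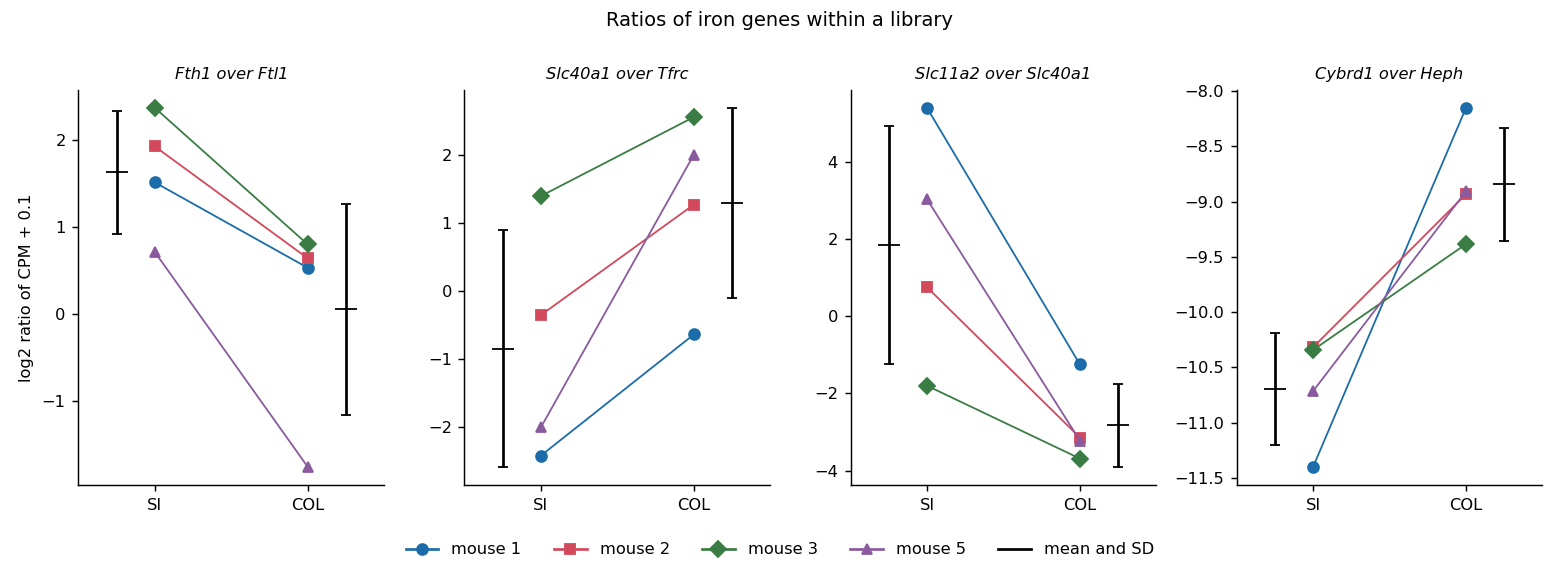
Log2 ratios of CPM + 0.1 within each library, each line joining SI and COL of 1 mouse, with the mean and SD of 4 libraries beside the points. Fth1 over Ftl1 and Slc11a2 over Slc40a1 are higher in SI in each of the 4 mice, and Slc40a1 over Tfrc and Cybrd1 over Heph are lower. With Cybrd1 near the floor, the last ratio largely follows Heph.

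The sex of the mice was examined because the labels give 2 mice of each. No gene of the 14491 tested had a tissue difference that differed between the sexes at an adjusted p under 0.05 by edgeR, and 761 (5.25%) had an unadjusted p under 0.05. Slc40a1 was the 1 iron gene among the latter (edgeR, adjusted p = 0.909). Its log2 fold change was -4.75 ± 1.22 in the female and -1.003 ± 1.05 in the male mice (SE). In SI the female mice were also those of low mitochondrial share, so that sex and this share cannot be told apart there.

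A wider list of 75 genes of iron, heme and oxygen pathways was read from the same fit. Of these, 66 were tested, and 16 had higher levels in SI while 11 had higher levels in COL, which is 40.9% against 28.4% of all genes tested. With library size alone these became 10 and 19. The median log2 fold change of the 66 was 0.30. The first group, other reductases, carriers and carrier proteins, had 5 of 12 tested higher in SI and 4 higher in COL. Flvcr1, described as a heme exporter, averaged 50.2 ± 24.8 CPM in SI against 2.59 ± 0.983 CPM in COL (SD, n = 4 each, log2 fold change 4.27 ± 0.46, edgeR, adjusted p = 5.74e-05). Its relative Flvcr2 was at 12.5 ± 10.1 and 0.414 ± 0.196 CPM (4.93 ± 0.79, edgeR, adjusted p = 0.000755). Of the stretches of Flvcr1, 18.4% are shared with the gene model A230020J21Rik.

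Steap3, the ferrireductase of endosomes that prepares transferrin iron for DMT1, went the other way. It was at 2.40, 6.53, 7.91 and 6.64 CPM in SI of mice 1, 2, 3 and 5 and at 20.7, 13.7, 46.8 and 56.9 CPM in COL, with no overlap (log2 fold change -2.56 ± 0.51, edgeR, adjusted p = 0.00299). Ltf, which encodes the iron-binding protein lactoferrin, was higher in SI at 2.09 ± 1.38 CPM against 0.151 ± 0.140 CPM (3.68 ± 0.95, edgeR, adjusted p = 0.0129). Trf, which encodes transferrin itself, had at most 13 counts and was not tested. Its level is uncertain, since 79.8% of its 50-base stretches also belong to the gene model Gm20425.

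The 3 genes of the iron-sensing group were all higher in SI. Aco1 encodes IRP1, which is an aconitase when it holds an iron-sulfur cluster and binds iron-responsive elements when it does not. It was at 713, 353, 442 and 622 CPM in SI of mice 1, 2, 3 and 5 and at 51.1, 29.7, 111 and 101 CPM in COL (log2 fold change 2.86 ± 0.47, edgeR, adjusted p = 0.000974). Fbxl5, the iron-sensing subunit of the ligase that removes IRP2, was at 222 ± 76.7 and 41.8 ± 13.3 CPM (2.41 ± 0.36, edgeR, adjusted p = 0.000551). Ireb2, which encodes IRP2, was at 83.8 ± 17.8 and 37.2 ± 5.45 CPM (1.17 ± 0.26, edgeR, adjusted p = 0.00545). The call of Ireb2 was lost with library size alone (0.44, edgeR, adjusted p = 0.219), while those of Aco1 and Fbxl5 were not. The protein that removes IRP2 and both iron regulatory proteins thus had higher mRNA levels in SI under TMM scaling.

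Within the group of intracellular iron handling, 2 of 9 tested were higher in SI and none was higher in COL. Slc25a37, the mitochondrial iron importer mitoferrin, had a log2 fold change of 1.79 ± 0.28 (SE, edgeR, adjusted p = 0.000677). Ncoa4, the receptor that delivers ferritin for autophagy, had one of 1.69 ± 0.45 (SE, edgeR, adjusted p = 0.0159), which was lost with library size alone (0.91, edgeR, adjusted p = 0.138). Of the stretches of Ncoa4, 43.1% are shared with the gene model Gm6768. Pcbp1, a chaperone that loads iron into ferritin, was at 57.6 ± 15.8 and 46.4 ± 12.7 CPM (0.31 ± 0.29, edgeR, adjusted p = 0.466). Thus the receptor for ferritin turnover differed with TMM and the loader of ferritin did not pass the test.

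Heme synthesis and breakdown had 2 of 12 tested higher in SI and none higher in COL, so that most of the pathway did not pass. The 2 were Hmox2, the constitutive heme oxygenase, at a log2 fold change of 1.21 ± 0.40 (SE, edgeR, adjusted p = 0.0421), and Ppox, an enzyme of the late steps of synthesis, at 0.91 ± 0.24 (SE, edgeR, adjusted p = 0.0147). Both were lost with library size alone, at 0.41 (edgeR, adjusted p = 0.455) and 0.17 (edgeR, adjusted p = 0.590). Leaving out the SI library of mouse 1, 3 or 5 or the COL library of mouse 1 also ended the call of Hmox2, at 1.05 to 1.20 (edgeR, adjusted p = 0.0822 to 0.123). Of the stretches of Hmox2, 47.7% are shared with Cdip1. With TMM, Hmox1 and Hmox2 thus lay on opposite sides.

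The hepcidin axis, through which the liver closes ferroportin, was mostly under the filter in crypts. Of 8 genes, 6 were under the filter, among them Hamp, the hepcidin gene, with at most 4 counts, and Tfr2, a second transferrin receptor, with at most 9 counts. Hfe, which encodes the partner of the transferrin receptor mutated in hemochromatosis, was at 1.27, 0.665, 3.24 and 1.92 CPM in SI of mice 1, 2, 3 and 5 and at 5.99, 2.74, 11.2 and 11.6 CPM in COL. It was higher in COL (log2 fold change -2.15 ± 0.58, edgeR, adjusted p = 0.0171), which was lost without the COL library of mouse 5 (-1.90, edgeR, adjusted p = 0.0514).

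Of the 8 oxygen-sensing genes, 1 was higher in SI and 1 higher in COL. Hif3a was at 0.282 ± 0.457 and 3.00 ± 1.34 CPM (log2 fold change -3.39 ± 1.05, edgeR, adjusted p = 0.0305), which was lost without the SI library of mouse 2 or 5 or the COL library of mouse 1 (-3.07 to -3.14, edgeR, adjusted p = 0.0589 to 0.0912) and became -5.72 without the SI library of mouse 3. Arnt, the partner of HIF1A and HIF2A, had one of 0.71 ± 0.23 (SE, edgeR, adjusted p = 0.0403), which was lost with the mouse as a block (0.73, edgeR, adjusted p = 0.0668) and in all but 1 of the fits that left out a library, and was -0.04 with library size alone (edgeR, adjusted p = 0.911). Hif1a was at 29.3 ± 7.59 and 23.0 ± 10.9 CPM (0.35 ± 0.34, edgeR, adjusted p = 0.477). Egln3, a prolyl hydroxylase that marks HIF subunits for decay, was at 11.96 ± 4.61 and 4.88 ± 2.82 CPM (1.30 ± 0.46, edgeR, adjusted p = 0.0533). The calls of this group thus rested on small or low values.

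Among 11 genes known as HIF targets, 1 was higher in SI and 4 were higher in COL. Slc2a1, the glucose transporter GLUT1, was at 6.07, 2.18, 3.70 and 5.08 CPM in SI of mice 1, 2, 3 and 5 and at 43.5, 64.0, 162 and 125 CPM in COL (log2 fold change -4.53 ± 0.50, edgeR, adjusted p = 7.02e-05). P4ha1, a collagen prolyl hydroxylase, was also higher in COL (-1.44 ± 0.32, edgeR, adjusted p = 0.0061). The calls in COL that are not named here held in only 3 or 4 of the 8 fits that left out a library. Bnip3, a mitophagy receptor, was higher in SI (1.58 ± 0.39, edgeR, adjusted p = 0.0104), though not with library size alone (0.84, edgeR, adjusted p = 0.116), and 62.4% of its stretches are shared with other genes. Targets of one pathway thus lay in both directions.

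In the last group, genes of the NRF2 and BACH1 axis that is known to control Hmox1, 2 of 9 were higher in SI and 1 was higher in COL. Bach1 encodes the heme-binding repressor of Hmox1. It was at 41.2, 37.0, 31.5 and 47.4 CPM in SI of mice 1, 2, 3 and 5 and at 14.4, 14.5, 12.7 and 11.4 CPM in COL, with a narrow spread in COL and no overlap (log2 fold change 1.57 ± 0.24, edgeR, adjusted p = 0.000571). Srxn1, which restores oxidised peroxiredoxins, was higher in SI as well (1.76 ± 0.28, edgeR, adjusted p = 0.000719). Slc7a11, the cystine importer, was higher in COL at 1.56 ± 0.329 against 0.243 ± 0.362 CPM (-2.71 ± 0.91, edgeR, adjusted p = 0.0434), a call lost without the SI library of mouse 1, 3 or 5 or any 1 COL library (-2.34 to -2.79, edgeR, adjusted p = 0.0552 to 0.111). Without the SI library of mouse 2 its value was -4.52.

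**Figure D5:**
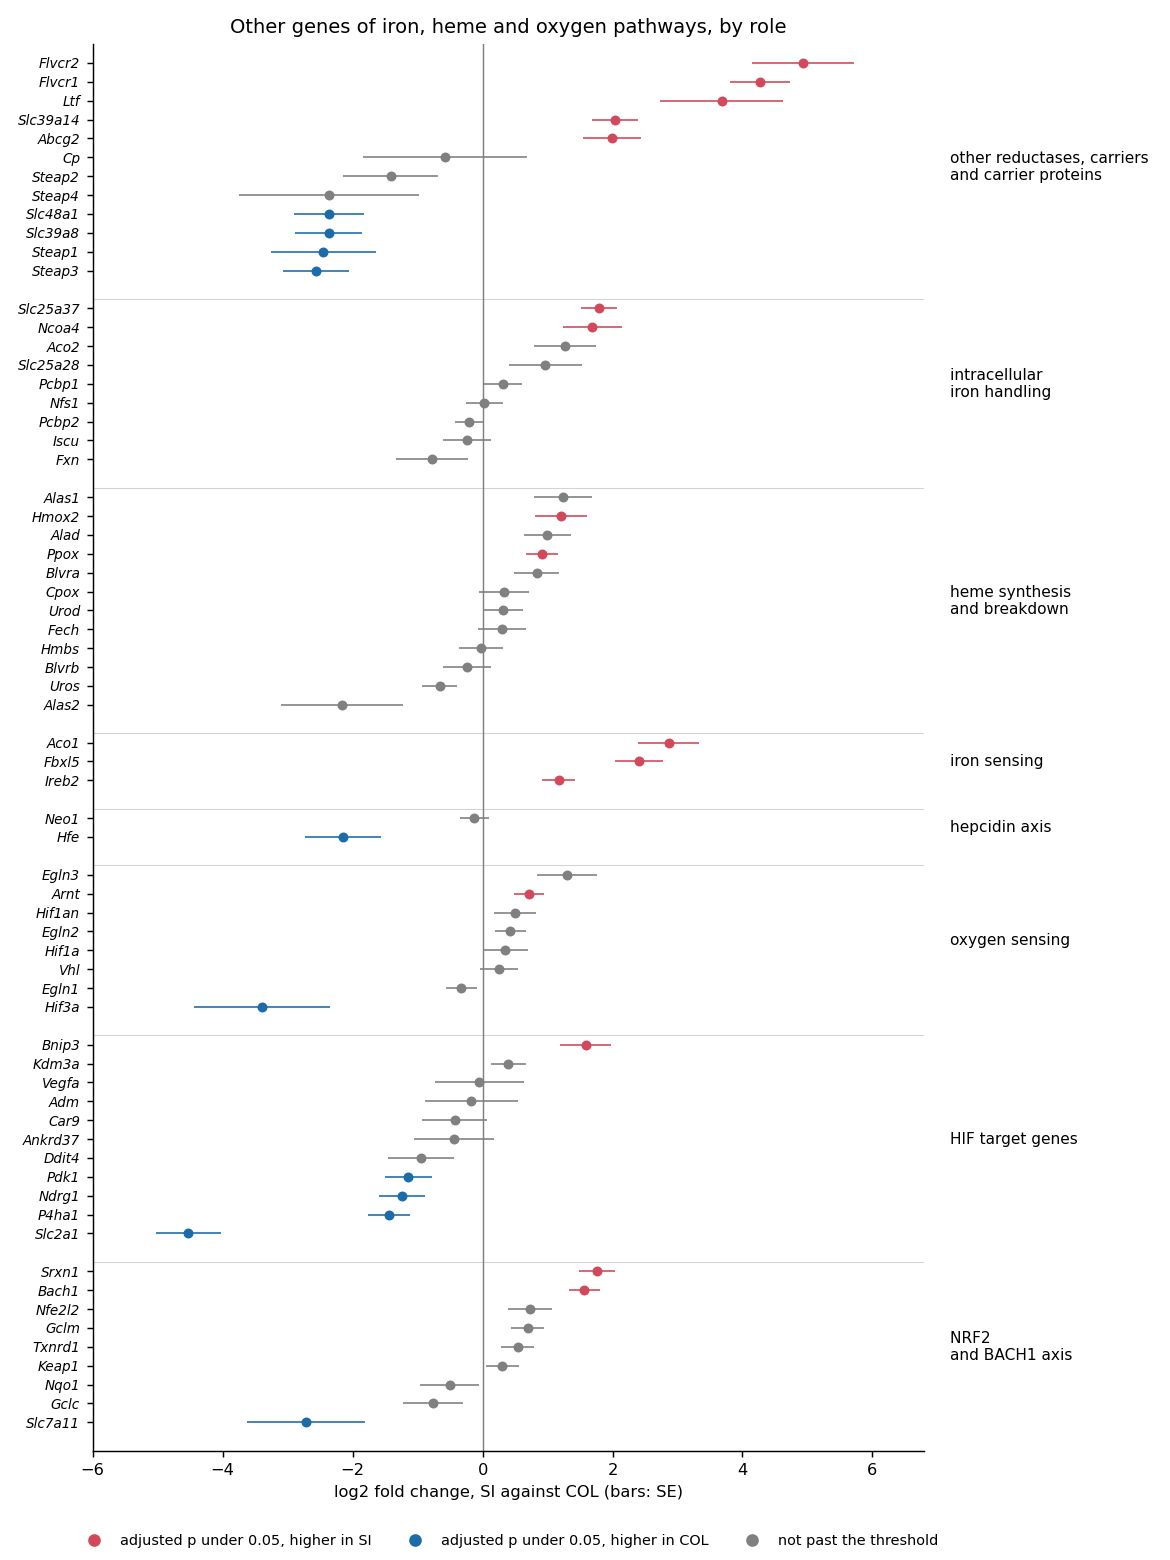
Log2 fold change of SI against COL with its SE for the 66 pathway genes tested, by role, coloured by direction where the adjusted p was under 0.05. All 3 iron-sensing genes lie to the right, towards SI, and 4 of the 5 coloured HIF targets lie to the left, towards COL.

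The genes most alike in pattern were sought among 3647 genes with a mean log2 CPM of at least 5, by the root mean square difference of log2 CPM centred over the 8 libraries. For Slc11a2 they were Dqx1 (0.118), Gpr160 (0.124) and Tpi1 (0.129), and for Heph they were Galm (0.179), Myo1a (0.193) and Pdzd3 (0.195). For Tfrc they were Mybbp1a (0.261), Nolc1 (0.299) and Gas5 (0.302). For Slc40a1 they were Kcne3 (1.23), Akr1c19 (1.28) and Csrp2 (1.29). The measure is not scaled to a gene's own spread, which was wide for Slc40a1, so that it does not compare between these genes. Cybrd1 was not compared, because it was under the filter.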

How the data were processed

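RNA-Seq had been performed by the authors on freshly isolated SI and COL crypts of 4 mice. Per the authors, read pairs were trimmed (Trimmomatic) and both the alignment to mm10 and the counting per gene used STAR. The submitters' processing notes give the versions as Trimmomatic 0.36 and STAR 2.5.2b. The deposited values are raw counts per Ensembl gene. The annotation release, the use of strand and the treatment of multi-mapping reads are not given in the sources used here. Samples were grouped by the tissue and donor mouse in the labels.

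The members and gene lists were chosen with earlier results of these data known. Counts were annotated with GENCODE M21, and 563 of 45706 identifiers had no match. Genes were kept by filterByExpr (about 10 counts in at least 4 libraries and 15 in all). SI was tested against COL by the quasi-likelihood test of edgeR 4.0.16 in R 4.3.3 with TMM and Benjamini-Hochberg adjustment over 14491 genes at 0.05, without a term for the mouse. DESeq2 1.42.0 and limma 3.58.1 were alternatives. The study's methods name limma for this contrast, with the same adjustment and threshold, but not its normalization, filter or design. The fits were tested on simulated data. The labels give SI and COL libraries of each number to 1 mouse, which pairs them. Deviations from the tissue means correlated at -0.24 to 0.39 within mice and -0.41 to 0.27 between mice. Named genes were the 10 members, the 3 largest called changes of each pathway group and 12 fixed pathway genes. SDs describe the spread between the libraries of 4 mice within a tissue. The main fit and the exact permutation test took the 8 libraries as independent. Only the fits with the donor block and the sign-flip test used the pairing. Total counts ranged from 15969428 to 32908060.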

Additional observations from a re-analysis of the deposited data

Results flagged for a closer look

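In groups of 4 libraries, a value was marked when its gap to the nearest other value took more of the group's range than Dixon's test at its usual limit allows. Of 28 groups of member CPM values and ratios, 2 were marked. The limit marks about 1 in 20 groups of independent, normally distributed values. CPM values were taken without a log and the groups share libraries, so that this rate need not hold here. Slc40a1 in SI was marked for mouse 3, at 261 CPM against a group median of 26.2 CPM. The log2 ratio of Fth1 over Ftl1 in COL was marked for mouse 5, at -1.75 against a group median of 0.59.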

How the results depend on the processing

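Slc11a2, Slc46a1 and Heph kept their direction and their call under all 19 other fits, and in either class of mitochondrial share their log2 differences were 1.49 to 1.997, 4.66 to 5.60 and 2.71 to 3.20. The number of iron genes called was 3 to 7 and was 4 or 5 when any 1 library was left out. It was 7 with limma-voom and the donor block, which added Slc40a1 (adjusted p = 0.00273), Fth1 (0.0166) and Epas1 (0.0421), all by limma. Besides Slc40a1, the donor block in edgeR changed no call among the 9, and among the pathway genes it lost Arnt and added 4. Slc40a1 was also called without a filter on low counts (edgeR, adjusted p = 0.00243) and Epas1 with upper-quartile scaling (edgeR, adjusted p = 0.0353). Hmox1 had too few counts for the filter of 10 in every library. Ftl1 had no stable sign. Its log2 fold change was -0.11 in the report, 0.077 with limma-voom, 0.0695 with limma-voom and the donor block, 0.00981 with the donor block in edgeR, and -0.33 to 0.24 when any 1 library was left out, with 0.12 without SI of mouse 2, 0.24 without COL of mouse 3 and 0.0249 without COL of mouse 5. The cause was not tested. Pathway genes called numbered 20 to 37 and all genes called 3167 to 5903. With an offset of 1 CPM none of the 4 ratios was called, and Cybrd1 over Heph moved from -1.85 to -2.75. A sign-flip test over 4 mice (replicate block) cannot go below 0.125. When any 1 library was left out, the differences were 0.97 to 1.88 for Fth1 over Ftl1, -2.90 to -1.62 for Slc40a1 over Tfrc, 3.49 to 5.89 for Slc11a2 over Slc40a1 and -2.03 to -1.62 for Cybrd1 over Heph. The call of no gene in the test of sex was the same with library size alone. Depth limits Cybrd1, the SI values of Hmox1 and the genes of the hepcidin axis.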
